A study of Mus musculus with 6 samples.

Results

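The 10 genes Ccr2, Acod1, Saa3, Hp, C3, Tnip3, Clec2i, Fcrls, Creb5 and Vcam1 were followed across 6 libraries of mouse peritoneal macrophages, because their levels in the first library labelled KO (KO replicate 1) stand apart from those in the other 5. They were chosen by those levels, so the distance of KO replicate 1 is given as a description with no test. All 10 were found among the 15469 genes of the table, and all 10 passed the filter on low counts, which kept 11424 genes. KO replicate 1 held the highest level of 9 of them and the lowest of Vcam1.

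The cells were macrophages from the peritoneal cavity of CAIA mice, a model the labels name only by its abbreviation. They were sorted for surface RELM-α, a secreted resistin-like protein used as a mark of alternative activation, and then plated in culture medium. The 3 libraries labelled KO are those the labels call deleted for PU.1, the ETS-family transcription factor that macrophages need to develop, and the 3 labelled WT are the controls. The sources used here do not give strain, age, the means of deletion or the time in culture. They also do not say that libraries of 1 group are separate animals or cultures, so a p-value here covers only library-to-library spread, which may be technical.

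Depth lay between 17280855 and 18632623 counts per library. KO replicate 1 was at least 4-fold above all other 5 libraries for 23 of 11424 genes (0.201%) and at least 4-fold below them for another 23 (0.201%), on the scale of log2(CPM + 0.5), where CPM is the count scaled to the library's effective size. For KO replicate 2 the same counts were 0 and 1, and for each of the other 4 libraries 0 and 0. Spi1, which encodes PU.1, was at 276.9 CPM in KO replicate 1, 285.5 and 319.7 CPM in KO replicates 2 and 3 and 283.7 to 340.2 CPM in the WT libraries, so its transcript does not check the label of a deletion. For the Y-linked genes Ddx3y, Eif2s3y, Kdm5d and Uty, KO replicate 1 held 0 to 4 counts and KO replicates 2 and 3 held 0 to 2, against 346 to 1296 in the WT libraries. The Y-linked genes mark sex and not the deletion: all 3 libraries labelled KO lack them and all 3 labelled WT have them, so in every comparison of KO with WT here sex and label cannot be told apart. In this KO replicate 1 is like the other libraries labelled KO. Over all genes tested, its log2(CPM + 0.5) correlated across genes at 0.963 to 0.966 with the WT libraries and at 0.910 and 0.930 with KO replicates 2 and 3, which correlated at 0.992 with each other, so by this measure it lay nearer to the WT libraries than to the other 2 labelled KO.

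Several of the 10 genes belong to the way macrophages answer infection and injury. CCR2 is the chemokine receptor that brings monocytes out of the bone marrow and into inflamed tissue, while resident macrophages of the peritoneal cavity usually carry little of it. Activated macrophages make itaconate with the mitochondrial enzyme encoded by Acod1, and acute-phase proteins such as serum amyloid A and haptoglobin rise in blood and tissue under inflammatory cytokines, often through NF-κB and C/EBP transcription factors. VCAM-1 is an adhesion molecule bound by the integrin α4β1 and is found on endothelium and on some tissue macrophages.

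Ccr2, the receptor for the monocyte chemoattractant CCL2, had the widest distance from the other libraries among all genes in which KO replicate 1 was highest, on the log2(CPM + 0.5) scale. With TPM in place of CPM the gap of Saa3 (4.38) passed that of Ccr2 (4.32), and after a correction for GC and length Saa3 (3.99), Acod1 (3.64) and Hp (3.49) passed Ccr2 (3.27). It was at 64.1 CPM in KO replicate 1, 1.54 and 2.502 CPM in KO replicates 2 and 3, and 1.80, 2.43 and 2.58 CPM in WT replicates 1, 2 and 3. The other 5 libraries lay close together, with the KO and WT values overlapping, and KO replicate 1 was 24.8 times the highest of them. Of its ligands, Ccl2 was at 8.70 CPM in KO replicate 1, 3.08 and 5.73 CPM in KO replicates 2 and 3 and 1.502 to 2.25 CPM in the WT libraries.

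Acod1, which makes itaconate from a citrate-cycle intermediate, was at 69.8 CPM in KO replicate 1, 5.34 and 4.48 CPM in KO replicates 2 and 3, and 3.66, 3.58 and 3.30 CPM in WT replicates 1, 2 and 3. KO replicate 1 was 13.1 times the highest of the others and 19.9 times the WT mean. Without it the groups still did not overlap, since KO replicates 2 and 3 were both above every WT library. That order is common: KO replicates 2 and 3 were both above all WT libraries in 33.9% of the genes tested, and both below in 35.6%.

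**Figure D1:**
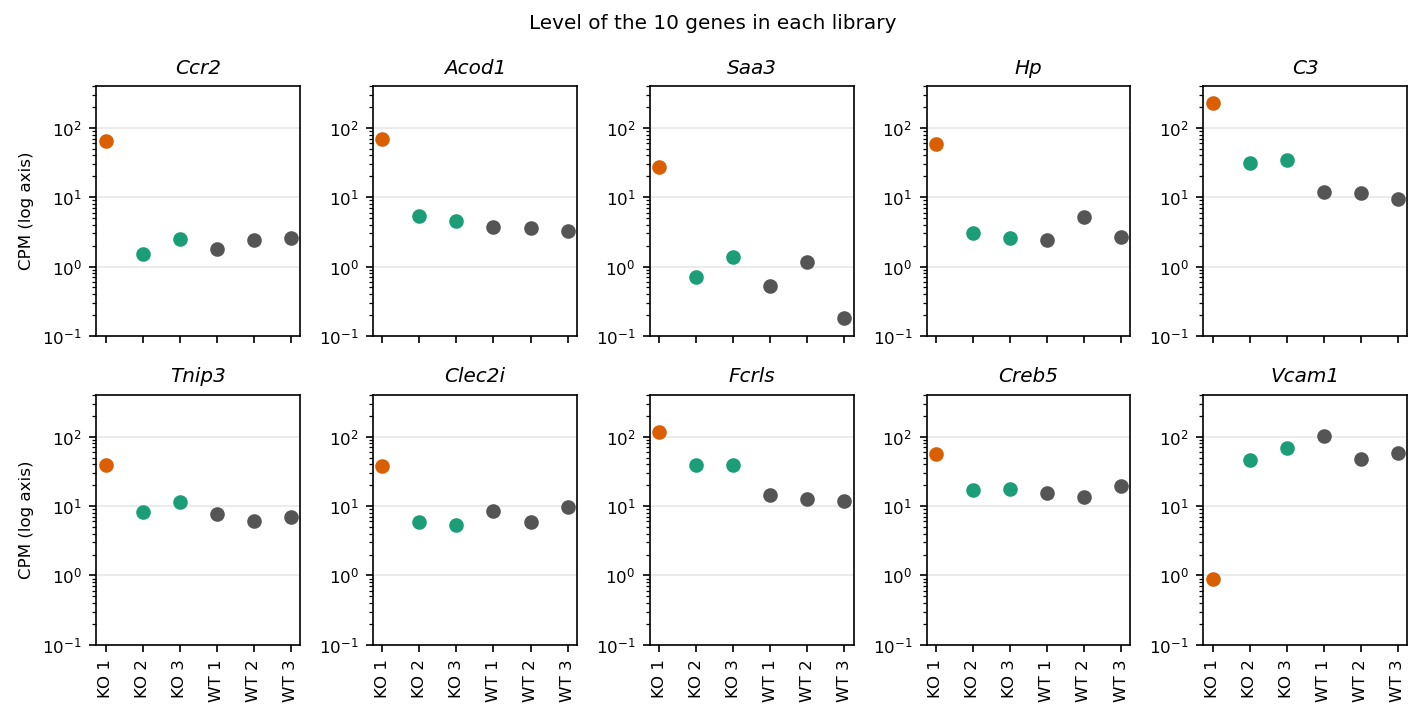
CPM of the 10 genes (log axis, the same range in every panel) in each of the 6 libraries, 1 point per library. KO replicate 1 (orange) is the highest point for 9 genes, up to 227.9 CPM for C3, and the lowest for Vcam1, at 0.881 CPM.

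The 3 secreted proteins of the acute-phase and complement systems were at their highest in KO replicate 1. Saa3, the serum amyloid A made outside the liver by macrophages and other cells, had few reads elsewhere. KO replicate 1 held 502 counts of it, KO replicates 2 and 3 held 14 and 26, and WT replicates 1, 2 and 3 held 9, 20 and 3. In CPM this was 27.6 against 0.719 and 1.36 and against 0.523, 1.16 and 0.18, and KO replicate 1 was 44.2 times the pooled WT rate, all WT counts over all WT depth (95% exact binomial interval 30.9 to 65.3, which covers counting error only). The 5 low libraries spread 7.52-fold among themselves, the widest spread of the 10 genes, and their groups overlapped.

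Hp encodes haptoglobin, which binds free haemoglobin. Its level was 58.0 CPM in KO replicate 1, 3.03 and 2.55 CPM in KO replicates 2 and 3, and 2.44, 5.26 and 2.64 CPM in WT replicates 1, 2 and 3. WT replicate 2 was the highest of the other 5, KO replicate 1 was 11.04 times that level, and the other KO and WT libraries overlapped. C3, the component on which all routes of complement activation meet, was at 227.9 CPM in KO replicate 1, 30.7 and 34.2 CPM in KO replicates 2 and 3, and 11.9, 11.4 and 9.49 CPM in WT replicates 1, 2 and 3. The libraries fell into 3 steps, with KO replicates 2 and 3 at 2.97 times the WT mean and KO replicate 1 at 7.03 times the mean of KO replicates 2 and 3.

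The promoter windows of C3 and Saa3 are shown because both hold the letters TTGCNNAA, searched on both strands as a C/EBP motif. These letters were present in the 250 bases before the start of transcription in 9.56% of 32851 mouse promoters and in 2 of the 8 genes that had a promoter in the RefSeq table. Both sequences are RefSeq, build GRCm38.p6, minus strand, 5′ to 3′, with the match in capitals. C3 lies at chr17:57228137-57228386, with the match 45 to 38 bases before the start, and Saa3 at chr7:46715677-46715926, with the match on the opposite strand 99 to 92 bases before the start. The Saa3 window lies inside the gene as placed below (46711998 to 46719615), so it precedes a RefSeq start within the gene and not its outermost start. A match describes letters and is not evidence of binding.
C3: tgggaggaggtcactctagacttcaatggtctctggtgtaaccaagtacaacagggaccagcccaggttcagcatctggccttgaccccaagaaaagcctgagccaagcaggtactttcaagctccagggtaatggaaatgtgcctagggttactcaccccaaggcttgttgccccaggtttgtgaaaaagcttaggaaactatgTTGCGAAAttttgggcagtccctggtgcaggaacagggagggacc
Saa3: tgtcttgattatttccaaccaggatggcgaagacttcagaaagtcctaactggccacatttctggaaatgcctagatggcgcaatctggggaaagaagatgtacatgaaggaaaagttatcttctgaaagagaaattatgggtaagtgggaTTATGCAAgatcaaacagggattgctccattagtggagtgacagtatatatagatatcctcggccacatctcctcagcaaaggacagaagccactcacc

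The regulators in the group, Tnip3 and Creb5, stood apart by less. Tnip3 encodes ABIN-3, a partner of the ubiquitin-editing protein A20 that restrains NF-κB signalling. It was at 39.6 CPM in KO replicate 1, 8.22 and 11.3 CPM in KO replicates 2 and 3, and 7.79, 6.01 and 7.03 CPM in WT replicates 1, 2 and 3, so KO replicate 1 was 3.50 times the highest of the others, and KO replicates 2 and 3 were both above the WT libraries. Its relatives stayed together: Tnip1 was at 130.0 CPM in KO replicate 1 and 98.9 to 120.7 CPM elsewhere, and Tnfaip3, which encodes A20, at 35.9 CPM against 32.2 to 42.6 CPM.

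Creb5, a transcription factor of the CREB and ATF family, was at 57.1 CPM in KO replicate 1, 17.3 and 17.7 CPM in KO replicates 2 and 3, and 15.6, 13.3 and 19.4 CPM in WT replicates 1, 2 and 3. The other 5 libraries spread 1.45-fold, the narrowest of the 10 genes, with overlapping groups, and KO replicate 1 was 2.95 times the highest of them. Among the other 20 CREB and ATF genes tested, none was 4-fold apart in KO replicate 1. The largest distance was that of Crebbp, a coactivator that binds CREB, at 52.6 CPM against 32.0 to 39.2 CPM.

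The windows of Tnip3 and Creb5 are printed because they hold the less common of the motifs searched. The NF-κB motif was present in 0.980% of promoters and in 1 of the 8 genes, Tnip3, on the opposite strand 54 to 45 bases before the start. The cyclic AMP response element TGACGTCA was present in 1.55% and in 1 of the 8, the upstream of 2 Creb5 starts, 45 to 38 bases before it. The other Creb5 start held the AP-1 letters TGANTCA (6.75% of promoters) 45 to 39 bases before it, and no other gene of the 8 did. GAGGAAG, used as a PU.1 motif, was present in 10.6% of promoters and in 2 of the 8, Tnip3 (opposite strand, 165 to 159 bases before the start) and Fcrls (144 to 138 bases before). No motif overlapped another in the windows shown, which lie at chr6:65590148-65590397 (Tnip3, plus strand), chr6:53287053-53287302 (Creb5, plus strand) and chr3:87263525-87263774 (Fcrls, minus strand), with matches in capitals. The Creb5 and Fcrls windows reach into the genes as placed below, so their RefSeq starts are not the outermost starts.
Tnip3: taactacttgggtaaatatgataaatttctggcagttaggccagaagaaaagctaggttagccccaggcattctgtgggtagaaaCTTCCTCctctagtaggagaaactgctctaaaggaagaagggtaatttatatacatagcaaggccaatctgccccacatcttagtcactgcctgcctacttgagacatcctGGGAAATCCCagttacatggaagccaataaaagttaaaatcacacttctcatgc
Creb5: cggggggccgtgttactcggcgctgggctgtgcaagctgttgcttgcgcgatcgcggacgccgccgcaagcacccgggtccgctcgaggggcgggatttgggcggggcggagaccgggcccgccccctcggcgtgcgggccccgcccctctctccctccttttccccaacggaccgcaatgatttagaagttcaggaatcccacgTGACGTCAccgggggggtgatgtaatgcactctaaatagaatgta
Fcrls: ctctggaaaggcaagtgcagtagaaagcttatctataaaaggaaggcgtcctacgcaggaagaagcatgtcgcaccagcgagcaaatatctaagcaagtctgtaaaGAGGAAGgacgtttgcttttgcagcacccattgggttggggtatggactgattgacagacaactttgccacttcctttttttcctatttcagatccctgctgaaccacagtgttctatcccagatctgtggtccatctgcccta

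Of the surface proteins, Clec2i encodes Clr-g, a C-type lectin-like ligand of the mouse NKR-P1 receptors on natural killer cells. Its level was 38.1 CPM in KO replicate 1, 5.96 and 5.37 CPM in KO replicates 2 and 3, and 8.49, 5.83 and 9.73 CPM in WT replicates 1, 2 and 3. KO replicate 1 was 3.92 times the highest of the others, which overlapped between the groups. All 5 other genes tested from its family and its gene complex went the other way, with KO replicate 1 lowest of the 6 libraries, among them Clec2d at 19.6 CPM against 33.2 to 47.2 CPM. The table lists an overlapping entry on the other strand, BC035044. The strand setting of the counting is not given in the sources used here, so reads of that entry and of Clec2i cannot be told apart.

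Fcrls, an Fc receptor-like scavenger receptor known in mouse as a microglial marker, was at 116.0 CPM in KO replicate 1, 39.4 and 38.5 CPM in KO replicates 2 and 3, and 14.2, 12.7 and 11.8 CPM in WT replicates 1, 2 and 3. It had the same 3 steps as C3: KO replicates 2 and 3 were at 3.02 times the WT mean and KO replicate 1 at 2.98 times the mean of KO replicates 2 and 3. Of 8 other genes tested from the Fc receptor list, which also holds Cd5l, KO replicate 1 was highest for 1 and lowest for 4. Fcgr4, an activating receptor for IgG, was at 27.8 CPM in KO replicate 1, 64.0 and 74.3 CPM in KO replicates 2 and 3 and 82.2 to 100.8 CPM in the WT libraries.

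Vcam1 was all but missing from KO replicate 1, which held 16 counts or 0.881 CPM (95% exact Poisson interval 0.503 to 1.43 CPM, for counting error only). Its level was 46.4 CPM in KO replicate 2, 69.4 CPM in KO replicate 3, and 103.5, 48.1 and 57.2 CPM in WT replicates 1, 2 and 3. KO replicate 1 was lower than the lowest of these by 52.7-fold, and lower than the pooled WT rate by 79.1-fold (48.6 to 139). The remaining KO and WT libraries overlapped. No other gene tested had KO replicate 1 so far below the rest.

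Levels between genes were compared per length, in TPM, a unit scaled for gene length and depth, as the authors deposited it. In KO replicate 1 the order was Saa3 at 109.2 TPM, Fcrls at 107.6, Hp at 93.6, C3 at 85.0, Acod1 at 52.65, Ccr2 at 33.45, Clec2i at 33.0, Tnip3 at 19.8, Creb5 at 16.2 and Vcam1 at 0.490 TPM. With 1 library there is no spread to say which neighbours in this order differ. By the median of the other 5 libraries Vcam1 came first at 28.7 TPM, then Fcrls at 11.1, Clec2i at 5.54, Creb5 at 4.48, C3 at 3.83, Hp at 3.81, Tnip3 at 3.19, Saa3 at 2.61, Acod1 at 2.28 and Ccr2 at 1.07 TPM. From Clec2i to Acod1 each gene's range over those libraries overlapped that of the next. The range of Vcam1 (22.68 to 47.41 TPM) also overlapped that of Fcrls (9.32 to 32.23 TPM), and in KO replicate 2 Fcrls was the higher, at 32.18 against 23.62 TPM. Saa3 thus went from rank 8523 to 10811 among the 15469 genes of the table in the other libraries to rank 1224 in KO replicate 1, and Vcam1 from rank 2378 to 4381 to rank 11259.

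The 10 genes were not alone at this distance. In order of the gap on the log2(CPM + 0.5) scale between KO replicate 1 and the highest of the others, Ccr2 (4.39) and Saa3 (3.92) ranked 1 and 2, Acod1 (3.59) and Hp (3.35) 4 and 5, C3 (2.72) 8, Clec2i (1.92) 27, Tnip3 (1.76) 36, Fcrls (1.55) 43 and Creb5 (1.53) 44 among 11424 genes. Between them came genes named here after their values were seen: Ly6a, the surface protein Sca-1, at 43.4 CPM against 1.32 to 2.82 CPM, was at rank 3. Ccl5, a chemokine of T cells and macrophages, at 11.7 CPM against 0.481 to 0.938 CPM, was at rank 6, and Ms4a4c, a membrane protein found in monocytes, at 10.6 CPM against 0.300 to 0.990 CPM, at rank 7. On the other side Vcam1 (-5.09) ranked 1, followed by Itgad, the integrin αD chain that pairs with β2, at 0.275 CPM against 7.22 to 28.5 CPM. Of the 10 genes 5 were at least 4-fold above and 1 at least 4-fold below, the share for all genes being 0.201% in each direction, which the choice of the genes fixes.

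**Figure D2:**
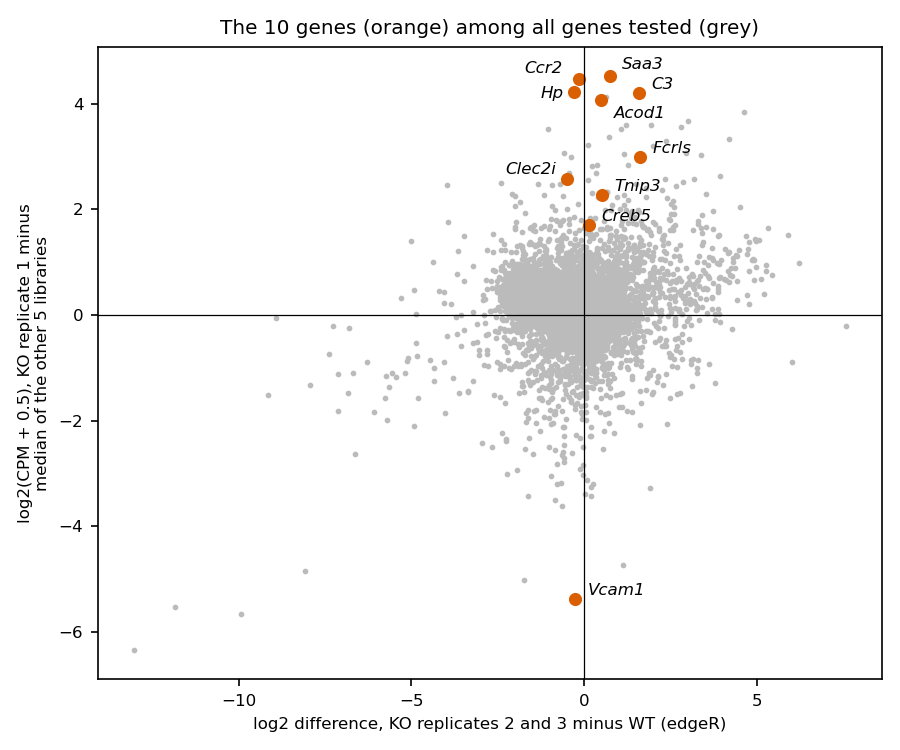
Each point is a gene tested: across, the log2 difference of KO replicates 2 and 3 from WT by edgeR, and upward, the log2(CPM + 0.5) of KO replicate 1 minus the median of the other 5 libraries. The 10 genes (orange) lie at 1.70 to 4.53 above the median, or -5.39 for Vcam1, while on the horizontal axis C3 (1.58) and Fcrls (1.61) lie furthest from 0.

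Between the labels, with all 6 libraries, none of the 10 genes passed the edgeR threshold. DESeq2 called 2 of them, and 1344 of the 15469 genes of the table, on all of which it was run. The quasi-likelihood test of edgeR called 0 of 10 at an adjusted p under 0.05, against 379 of 11424 genes (3.32%), and 2 of the 10 had an unadjusted p under 0.05, against 22.7% of all genes. The count over all genes was 15, 11, 14, 5 and 7 when KO replicate 2, KO replicate 3 or WT replicate 1, 2 or 3 was left out. The median log2 difference (KO minus WT) was 2.47 over the 10 genes and -0.01 over all genes. Without KO replicate 1 these medians were 0.31 and 0.02. Ccr2 was at 22.7 ± 35.8 against 2.27 ± 0.413 CPM (SD, n = 3 each), a log2 difference of 3.32 with SE 1.52 and an edgeR adjusted p of 0.259. Saa3 had the largest difference, 3.98 (SE 1.63, adjusted p = 0.225), Vcam1 was the only member with a negative one, -0.84 (SE 1.19, adjusted p = 0.672), and the smallest adjusted p, 0.0664, was that of Fcrls (log2 2.33, SE 0.491). DESeq2 called C3 and Fcrls (adjusted p = 0.000448 and 3.04e-05) and gave no p-value to Ccr2, Acod1, Saa3 and Hp, which are 4 of the 27 genes with reads that it left without one.

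Without KO replicate 1, only C3, Fcrls and Acod1 of the 10 genes changed between KO replicates 2 and 3 and the WT libraries, all 3 upward. In that comparison edgeR called 49.6% of 11677 genes, with 23.6% higher and 26% lower, so 3 of 10 is a smaller share than over all genes. KO replicates 2 and 3 did not overlap the WT libraries for these 3 genes and Tnip3, 4 of the 10, all above. Over all genes they were both above in 33.9% and both below in 35.6%, so this is no mark of the 10. C3 rose to 32.4 ± 2.504 (SD, n = 2) from 10.9 ± 1.27 CPM (SD, n = 3), which is 1.58 in log2 (SE 0.128, edgeR adjusted p = 7.09e-05, 95% interval 1.29 to 1.88). Fcrls rose from 12.9 ± 1.20 to 39.0 ± 0.609 CPM, a log2 difference of 1.61 (SE 0.112, edgeR adjusted p = 3.70e-05), and Acod1 from 3.52 ± 0.189 to 4.91 ± 0.606 CPM, a log2 difference of 0.50 at an edgeR adjusted p of 0.0487. Tnip3 was close to the threshold (log2 0.51, edgeR adjusted p = 0.0524).

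For the other 6 genes the comparison without KO replicate 1 gave intervals that took in 0. The log2 difference of Ccr2 moved from 3.32 to -0.15 (95% interval -0.822 to 0.516), that of Hp from 2.62 to -0.29 (-1.11 to 0.526) and that of Clec2i from 1.04 to -0.49 (-1.002 to 0.0318). Saa3 was at 0.74 (-0.680 to 2.16), Creb5 at 0.13 (-0.232 to 0.5002) and Vcam1 at -0.25 (-1.11 to 0.607). The direction of Ccr2, Hp and Clec2i between the labels therefore turned when 1 library was left out, and none of the 3 was called in either comparison. The intervals for Saa3, Hp, Clec2i and Vcam1 still allow a difference of 2-fold or more.

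**Figure D3:**
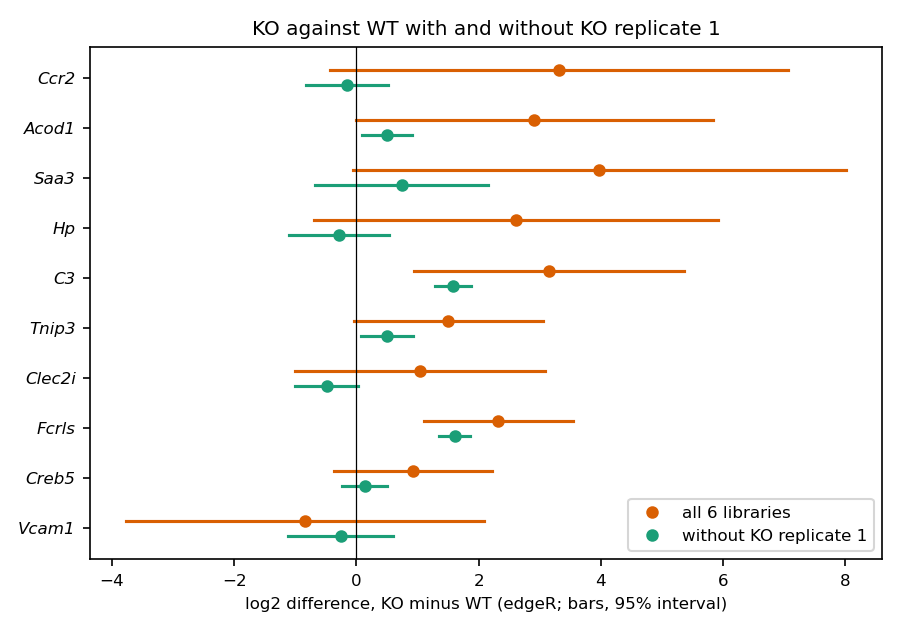
Log2 difference between KO and WT for each of the 10 genes by edgeR, with its 95% interval, from all 6 libraries (orange) and without KO replicate 1 (green). Without that library the intervals of C3, Fcrls, Acod1 and Tnip3 lie above 0, and those of the other 6 genes cross it.

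By annotation some of the genes shared terms. The 10 are not simply the genes furthest apart in KO replicate 1, so whether their function entered the choice is not known. The shares below are a description. In the terms listed in the table, 4 of the 10 (Acod1, Saa3, Hp and C3) carry "response to bacterium", a term held by 0.963% of all genes. Cell chemotaxis is held by 3 (Ccr2, Saa3 and Vcam1; 0.491% of all genes) and inflammatory response by another 3 (Ccr2, Acod1 and C3; 1.93%). Of the products, 4 are placed in the extracellular space (Saa3, Hp, C3 and Vcam1; 6.67%) and 4 at the cell surface (C3, Clec2i, Fcrls and Vcam1; 3.97%). Such terms rest on the same literature that names these genes as inflammatory.

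In the genome the genes were scattered. Coordinates are those of the table, which match GRCm38. Ccr2 lies on chromosome 9 (124101918 to 124109140), Acod1 on 14 (103047012 to 103056573), Saa3 on 7 (46711998 to 46719615), Hp on 8 (109575128 to 109579172) and C3 on 17 (57203967 to 57228136). Chromosome 6 holds Creb5 (53287226 to 53700364), Tnip3 (65590398 to 65634040) and Clec2i (128887582 to 128898167), and chromosome 3 holds Fcrls (87249309 to 87263765) and Vcam1 (116110020 to 116129688). The nearest gene tested on each side, 20 in all, did not share the distance: KO replicate 1 was highest for 4 of them and lowest for 5. On the log2(CPM + 0.5) scale none was 4-fold apart, the widest gap being 1.71-fold. That scale narrows gaps at low levels: Ccr3, beside Ccr2, was at 0.275 CPM against 0.821 to 2.501 CPM, and Klrb1a, beside Clec2i, at 0 against 0.308 to 0.930 CPM. Saal1, 1308 bases from Saa3, was at 7.76 CPM in KO replicate 1 and 7.39 to 13.4 CPM elsewhere, and Txnl4b, 1077 bases from Hp, at 10.02 CPM against 8.05 to 11.4 CPM. The genes differed in the GC content of their longest transcript, from 39.3% for Clec2i to 56.2% for Hp around a median of 50.1% for all genes. GC content and length together explained 6.26% of the variance between genes in the distance of KO replicate 1 from the median of the others.

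Genes of the same pathways were taken from 11 lists, without the 10 genes themselves. KO replicate 1 was the highest of the 6 libraries for 18 of 25 NF-κB-induced inflammatory genes and the lowest for 3, while over all genes it was highest for 20.4% and lowest for 20.6%. Apart from Ccl5, the furthest were Ptgs2, the inducible cyclooxygenase, at 5.61 CPM against 0.154 to 0.841 CPM, and Cxcl2, a neutrophil chemoattractant, at 7.10 CPM against 0.365 to 2.46 CPM. Tnf was at 48.2 CPM against 14.5 to 19.7 CPM. Between the labels edgeR called 2 of the 25 higher (all genes 2.26%) and 1 lower (all genes 1.06%). Marcksl1, an actin-binding substrate of protein kinase C, rose from 4.87 to 7.502 CPM over the WT libraries to 61.3 to 64.5 CPM over those labelled KO (log2 3.41, adjusted p = 0.00322), and Ccl4, a macrophage chemokine, was called with a log2 difference of 0.67 (adjusted p = 0.0443).

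Interferon-stimulated genes were highest in KO replicate 1 for 16 of 23 and lowest for none. Ifit2, an antiviral RNA-binding protein, was at 19.04 CPM against 2.21 to 3.84 CPM, Ifit1 at 6.17 CPM against 0.756 to 1.93 CPM and Oas2, an RNA-sensing synthetase, at 34.0 CPM against 5.66 to 13.8 CPM. Between the labels edgeR called 8 of 23 higher (all genes 2.26%) and 0 lower (all genes 1.06%). Without KO replicate 1 it called 13 of the 23 higher (all genes 23.6%) and 1 lower (all genes 26%). It called 0 without each of the other 5 libraries in turn, where it called only 5 to 15 over all genes. With the replicate block it called 0 of the 23 and 0 over all genes. Among the 8 were Gbp2, a guanylate-binding protein (log2 1.74, adjusted p = 0.0147), and Oas3 (log2 1.82, adjusted p = 0.0157). For Gbp2 and Oas3 KO replicate 1 lay near KO replicates 2 and 3, at 15.7 CPM against 14.2 and 11.9 CPM and at 49.2 CPM against 44.0 and 37.4 CPM.

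**Figure D4:**
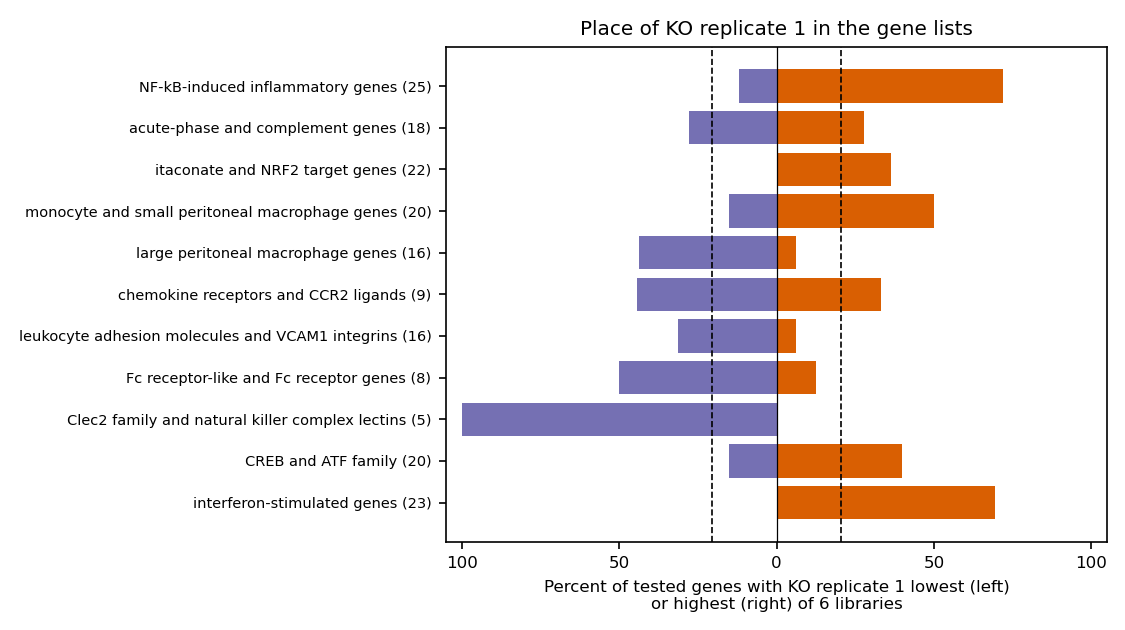
For each of the 11 pathway lists, the percent of tested genes (number in brackets) for which KO replicate 1 was the highest (right, orange) or the lowest (left, purple) of the 6 libraries. Dashed lines give the same for all genes, 20.4% and 20.6%. NF-κB-induced and interferon-stimulated genes reach furthest to the right, with 18 of 25 and 16 of 23.

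Around Acod1, KO replicate 1 was highest for 8 of 22 itaconate and NRF2 target genes and lowest for none. NRF2 is the transcription factor that itaconate is known to release from its inhibitor KEAP1. Nqo1, a quinone reductase, was at 27.1 CPM in KO replicate 1, 2.52 and 2.82 CPM in KO replicates 2 and 3 and 4.51 to 6.34 CPM in the WT libraries. Me1, the NADP-dependent malic enzyme, was at 23.1 CPM against 4.01 to 10.2 CPM in the rest, and Gclc, which makes the first step of glutathione, at 127.7 CPM against 45.3 to 77.1 CPM. The order differs from that of Acod1, since for Nqo1, Me1 and Gclc KO replicates 2 and 3 were below all WT libraries. Between the labels edgeR called 0 of the 22 (all genes 3.32%) and DESeq2 called 2 (all genes, 1344 of 15469). With KO replicate 1 left out, edgeR called 2 higher (all genes 23.6%) and 17 lower (all genes 26%). There Nqo1, Me1 and Gclc had log2 differences of -0.93, -0.81 and -0.58, against 1.07, 0.40 and 0.04 with it.

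Among 18 other acute-phase and complement genes, KO replicate 1 was highest for 5 and lowest for 5, close to the share over all genes. Slpi, a secreted protease inhibitor, was at 22.95 CPM against 1.54 to 3.61 CPM, and Socs3, a feedback inhibitor of cytokine signalling, at 6.50 CPM against 1.56 to 2.45 CPM. Cebpd, a C/EBP factor induced in the acute phase, was called higher in the libraries labelled KO (log2 1.03, edgeR adjusted p = 0.0402), and KO replicate 1 at 30.9 CPM lay with KO replicates 2 and 3 at 27.7 and 30.0 CPM. No other gene of the 18 was called, the share called over all genes being 3.32%.

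Among monocyte and small peritoneal macrophage genes, KO replicate 1 was highest for 10 of 20 and lowest for 3, and among large peritoneal macrophage genes highest for 1 of 16 and lowest for 7. Vcan, a matrix proteoglycan of monocytes, was at 4.62 CPM against 0.154 to 0.809 CPM, whereas Ear2, a ribonuclease, was at 0 CPM against 3.08 to 21.0 CPM. F10, coagulation factor X, was at 7.71 CPM against 42.2 to 83.1 CPM, and Fn1, fibronectin, at 3.14 CPM against 62.0 and 69.4 CPM in KO replicates 2 and 3 and 6.73 to 8.72 CPM in the WT libraries. Vsig4, a complement receptor of resident macrophages that binds C3 fragments, had 0 CPM against 0.347 to 10.6 CPM. Of the 20 monocyte list genes 3 rose between the labels (all genes 2.26%) and 0 fell (all genes 1.06%). Among the 3 were Spn, the sialomucin CD43, and Cx3cr1, the fractalkine receptor, at log2 differences of 4.05 and 4.64 (edgeR adjusted p = 0.00307 and 0.0126). Cx3cr1 was at 53.7 CPM in KO replicate 1 against 52.4 and 50.3 CPM in KO replicates 2 and 3. From the 16 of the large peritoneal list 2 rose (all genes 2.26%) and 1 fell (all genes 1.06%). Icam2, an adhesion ligand of LFA-1, was at a log2 difference of 1.31 (edgeR adjusted p = 0.0454) and the tetraspanin Cd9 at -0.57 (edgeR adjusted p = 0.0326).

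Around Vcam1, KO replicate 1 was highest for 1 of 16 other adhesion genes and lowest for 5. The exception was Itgb7, the β7 integrin chain that pairs with α4 to bind VCAM-1 and MAdCAM-1, at 135.7 CPM against 14.4 to 26.6 CPM. Itgax, the integrin chain CD11c, was at 69.1 CPM against 277.3 to 511.4 CPM, and Itga9, another integrin chain that binds VCAM-1, at 1.76 CPM against 4.89 to 8.41 CPM. Of these 16, edgeR called Itgal, the αL chain of LFA-1 (log2 1.24, adjusted p = 0.0217), and Icam2 higher (all genes 2.26%) and 0 lower (all genes 1.06%). In the list around Ccr2 KO replicate 1 was highest for 3 of 9 and lowest for 4, among them the eotaxin receptor Ccr3 at 0.275 CPM against 0.821 to 2.501 CPM and Ccrl2, a chemerin-binding receptor, at 20.5 CPM against 31.7 to 40.4 CPM. Cx3cr1 was its 1 called gene of 9, the share called over all genes being 3.32%.

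Elsewhere in the Fc receptor list KO replicate 1 was also lowest for Fcgr2b, the inhibitory IgG receptor, at 73.3 CPM against 124.0 to 155.3 CPM, and for Fcgr3, at 590.3 CPM against 867.0 to 969.6 CPM. EdgeR called 0 of the 8 (all genes 3.32%), as did DESeq2 (all genes, 1344 of 15469). Without KO replicate 1 edgeR called 4 of 8, near the 49.6% of all genes. In the lectin list KO replicate 1 was lowest for all 5 genes tested, which include Clec1b, the podoplanin receptor of platelets, at 0.385 CPM against 1.49 to 3.76 CPM. Clec7a, the β-glucan receptor Dectin-1, fell between the labels (log2 -1.81, edgeR adjusted p = 0.0317) and was at 193.0 CPM in KO replicate 1, 247.8 and 345.7 CPM in KO replicates 2 and 3 and 745.6 to 1082 CPM in the WT libraries. In the CREB and ATF list KO replicate 1 was highest for 8 of 20 and lowest for 3. Atf4 was at 151.6 CPM against 124.5 to 131.0 CPM and Crtc1 at 24.7 CPM against 16.5 to 20.8 CPM. EdgeR called 0 of the 20 (all genes 3.32%) and DESeq2 called 1 (all genes, 1344 of 15469).

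The calls between the labels for these 11 genes outside the 10 (Marcksl1, Ccl4, Cebpd, Spn, Cx3cr1, Cd9, Icam2, Itgal, Clec7a, Gbp2 and Oas3) rested on the settings and on which libraries were used. Ccl4 and Cd9 were not called with upper-quartile factors (edgeR adjusted p = 0.0607 to 0.0648), Ccl4 and Icam2 not without the filter (0.0511 to 0.0602), and none of the 11 with the replicate block (0.0722 to 0.184). With KO replicate 1 left out, all 11 were still called. Without KO replicate 2, KO replicate 3, WT replicate 1 or WT replicate 3 only Marcksl1 and Spn stayed called, the other 9 having an adjusted p of 0.0574 to 0.177, 0.0665 to 0.2, 0.0877 to 0.196 and 0.0691 to 0.138. Without WT replicate 2 only Spn and Cx3cr1 stayed called, the others being at 0.0639 to 0.275.

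By the shape of their levels over the 6 libraries, some genes were very like the group. The measure was Pearson's r of log2(CPM + 0.5) over 6 libraries with the mean standardised profile of the 9 genes that were highest in KO replicate 1, taken among 1951 genes whose mean was 10 CPM or more and a range of at least 1 in log2, and it is a description, since 1 library sets it. Clec4e (r = 0.993), the lectin Mincle that senses mycobacterial glycolipid, was at 118.3 CPM in KO replicate 1, 14.7 and 18.5 CPM in KO replicates 2 and 3 and 9.43 to 11.03 CPM in the WT libraries. Next came Tnf (0.988), Als2cl (0.987), Itgb7 (0.984) and Gpr132 (0.984), a receptor that responds to lysophospholipids, at 31.2 CPM against 14.9 to 16.9 CPM. Most like Vcam1 were Cnn2 (0.986), the actin-binding calponin 2, Epb41l3 (0.984), a membrane skeleton protein, Lyz1 (0.980), a lysozyme, Lgmn (0.980), the lysosomal protease legumain, and Gpr157 (0.978). Of these Lgmn was at 669.0 CPM in KO replicate 1 against 1684 to 1801 CPM, and Epb41l3 at 0.991 CPM against 10.3 to 17.4 CPM.

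Markers of other cells moved with KO replicate 1 in some lists and not in others. Of the macrophage markers, all 9 in the table were tested and present. Csf1r, the M-CSF receptor, was at 2900 CPM in KO replicate 1, 2573 and 2609 CPM in KO replicates 3 and 2 and 1560 to 1567 CPM in the WT libraries. Lyz2, lysozyme M, was at 13171 CPM against 29743 to 36709 CPM, and with it the summed level of the list was 20070 CPM against 35750 to 44820 CPM. Most of that sum was Lyz2. Of the 9 markers KO replicate 1 was highest for 1, Csf1r, and lowest for 5, Lyz2 among them. Adgre1 (863.8 CPM) and Cd14 (220.5 CPM) lay above the WT libraries and below KO replicates 2 and 3. In bulk samples a change in the share of a cell type and a change in RNA per cell cannot be told apart.

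The dendritic cell markers, 8 of 8 in the table, summed to 11.7 CPM in KO replicate 1, 0.257 and 0.626 CPM in KO replicates 2 and 3 and 1.57 to 1.68 CPM in the WT libraries. Cd209a, a lectin of monocyte-derived dendritic cells, made up 7.38 CPM of it against 0.0510 to 0.582 CPM elsewhere, Siglech, a plasmacytoid cell lectin, 2.70 CPM against 0 to 0.0600 CPM and Flt3, the receptor for the growth factor of dendritic cells, 0.771 CPM against 0 to 0.0580 CPM. Other markers of the list went the other way: Zbtb46, a dendritic cell transcription factor, was lowest in KO replicate 1, at 0.110 CPM against 0.154 to 0.481 CPM, and Clec9a was at 0.220 CPM against 0.465 to 1.10 CPM in the WT libraries and 0 and 0.104 CPM in KO replicates 2 and 3. Xcr1 was at 0.0550 CPM and at 0 in the other 5 libraries. The part of such cells in the levels of Ccr2 and the other genes was not tested. Mesothelial markers, of which 5 of 12 were in the table, summed to 0.220 CPM in KO replicate 1 and 0 to 0.156 CPM in the others. Fibroblast markers (7 of 9) summed to 4.13 CPM in KO replicate 1 against 24.9 and 38.0 CPM in KO replicates 2 and 3 and 5.89 to 8.90 CPM in the WT libraries.

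The sums of the lymphocyte lists were also lowest in KO replicate 1. B cell markers (7 of 8) summed to 9.91 CPM against 33.5 to 59.0 CPM, with Ms4a1 and Pax5 at 0 CPM. Most of this sum was Cd22, at 6.44 CPM against 31.9 to 57.4 CPM. Cd79b went the other way and was highest in KO replicate 1, at 3.25 CPM against 1.02 to 1.46 CPM. T and NK cell markers (7 of 10) summed to 3.25 CPM against 19.9 to 29.1 CPM, nearly all of it Cd4. Cd3e, Cd3g and Nkg7 were at 0 CPM. Eosinophil markers (4 of 6) summed to 1.16 CPM against 6.28 to 8.59 CPM. Neutrophil markers (10 of 11) summed to 137.8 CPM against 79.3 to 115.8 CPM, of which Csf3r, also found in macrophages, was 131.4 CPM, with Elane, Retnlg and Cxcr2 at 0 CPM. Endothelial markers (8 of 8) summed to 129.0 CPM against 75.6 to 107.8 CPM, mostly Vwf, with Tek and Cldn5 at 0 CPM. Mast cell markers (2 of 8) summed to 0.661 CPM against 0.116 to 1.13 CPM, erythroid markers (4 of 6) to 1.49 CPM against 0 to 1.79 CPM and platelet markers (7 of 7) to 54.6 CPM against 16.1 to 107.8 CPM. Their part in the levels of the 10 genes was not tested.

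**Figure D5:**
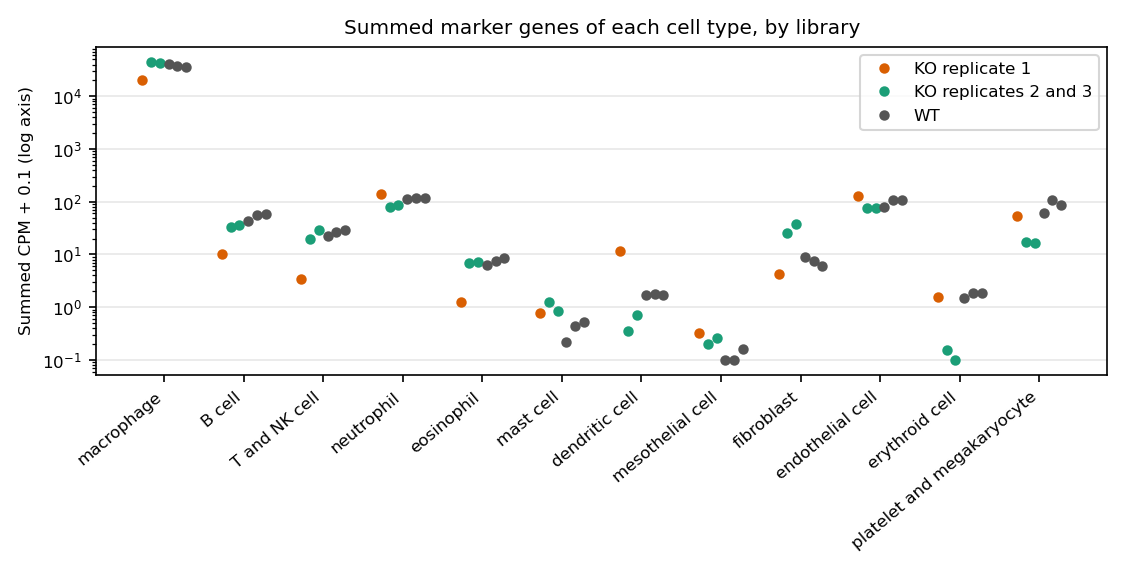
Summed CPM of the marker genes of each cell type (log axis, 0.1 added) in each library, 1 point per library. KO replicate 1 (orange) is above the other 5 libraries for dendritic cell markers, 11.7 CPM, and below them for macrophage, B cell, T and NK cell and fibroblast markers, among others. Most of the macrophage sum is Lyz2, while Csf1r was highest in KO replicate 1.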

How the data were processed

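RNA of sorted RELM-α+ peritoneal macrophages was captured on beads, fragmented, reverse transcribed, PCR-amplified and read on an Illumina instrument, per the labels' protocols. The submitters' processing notes name fastp 0.18.0 and the build GRCm39. The table's coordinates are GRCm38: gene IDs tied 15426 genes to RefSeq GRCm38.p6, and 13128 of these had the same start. The sources used here do not give the aligner, the counting program or its strand setting. The authors deposited estimated counts, without normalization per the file headers, and these were rounded to whole counts. The TPM values, per gene length, are those the authors deposited. The authors also deposited FPKM values and, made with DESeq2 per the file headers, log2 fold changes with p-values and q-values, none of which entered a result.

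Groups were taken from the sample titles. Genes were kept by filterByExpr of edgeR (minimum count of 10), scaled with TMM factors and tested by quasi-likelihood in edgeR 4.0.16 (F test, robust fit, R 4.3.3), the model holding group alone. A gene was called at a Benjamini-Hochberg adjusted p under 0.05 over all genes tested. The distance of a library is the difference in log2(CPM + 0.5) from the nearest of the other 5. The test was checked on simulated data in which all KO libraries shared the same 4-fold changes and no library stood apart. The check thus does not cover data with a library like KO replicate 1. The alternatives tried were other scaling factors (RLE, upper-quartile), DESeq2 1.42.0, no filter, the replicate number as a block, leaving out each library, a pseudocount of 2 CPM and TPM in place of CPM. Correcting for the GC content and length of transcripts (98.0% of genes tested, 10 of the 10) was chosen after seeing the data.

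The 10 genes, the 11 pathway lists, the 12 marker lists and the motifs were chosen with earlier results of these data known. Named beside the 10 were, from each list, up to 3 genes (mean 1 CPM or more) with the largest distance of KO replicate 1, up to 2 called genes with the smallest p, and the 5 genes most alike in profile on each side. Tnip1, Tnfaip3, Ccl2, Tnf and the genes near the 10 in the genome were named as family, ligand or neighbour, and Ly6a and Itgad after their values were seen. A gene that the rule names is not reported here. No pair of libraries was alike within sampling noise (lowest chi-square divided by its degrees of freedom, 6.83).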

Additional observations from a re-analysis of the deposited data

How the results depend on the processing

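The number of the 10 genes called between the labels was 0 by edgeR with TMM factors, RLE factors, no filter and the replicate block, 1 with upper-quartile factors (Fcrls, adjusted p = 0.04929), 2 by DESeq2 and 0 to 3 when single libraries were left out, the 3 being those without KO replicate 1. Over all genes the count was 379 of 11424, against 1344 of 15469 by DESeq2. It was 5 to 5793 when single libraries were left out, the most without KO replicate 1 and the fewest without WT replicate 2. With the replicate number as a block edgeR called 0 genes, with 1976 at an unadjusted p under 0.05. Nothing in the labels pairs the samples by number, and the deviations of same-numbered samples from their group means correlated at -0.186, 0.294 and -0.309.

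KO replicate 1 was highest for the same 9 genes and lowest for Vcam1 under all 10 alternatives tried for the distance. Leaving out another library or adding 2 CPM cannot change which library is highest or lowest. Only the changes of scaling, filter and unit and the GC and length correction could have done so. The gap ranged from 3.27 to 4.43 for Ccr2 and from -5.28 to -4.07 for Vcam1. The GC and length correction moved it from 4.39 to 3.27 for Ccr2, from 1.76 to 0.80 for Tnip3, from 1.53 to 0.93 for Creb5 and from 1.92 to 1.26 for Clec2i. The count of genes at least 4-fold below fell from 23 to 11 with 2 CPM added.

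Without KO replicate 1 the log2 difference turned negative and was called for Ptgs2 (-2.09), Cxcl2 (-1.84), Nqo1 (-0.93), Me1 (-0.81) and Gclc (-0.58). In that fit 26% of all genes were called lower. The highest values without another single library were 1.82, 1.14, 1.51, 0.76 and 0.26 for these genes in the same order. The cause was not tested, and KO replicate 1 was the highest library for all 5. Depth limits Saa3 most, with 3 to 26 counts in 5 libraries, and Vcam1 in KO replicate 1, with 16.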
